A study of Homo sapiens with 6 samples.

Results

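The genes described here are MYC, its textbook target ODC1 and 33 proteins that work in the nucleolus or on ribosome assembly, 35 of the 20263 genes in the deposited table. They were chosen by symbol from a list of MYC and ribosome biogenesis genes. The rule did not use their measured values, but earlier results of these data were known when they were chosen. All 35 were found once and passed the filter on low counts. Polyadenylated RNA of AsPC-1 cells, a line grown from the ascites of a patient with pancreatic adenocarcinoma, was sequenced after transfection of a small interfering RNA (siRNA). The groups were HMOX1si1 and HMOX1si2, which received different siRNAs against HMOX1, and siControl, which received a negative control siRNA, with 2 libraries each. Every group was therefore transfected, with the jetPRIME reagent, and the comparisons show siRNAs against HMOX1 relative to a control siRNA and not relative to untouched cells. The model is 1 tumour cell line with transient knockdown, and the sources used here do not give the time between transfection and harvest. The study asks how HMOX1, the heme-degrading enzyme heme oxygenase-1, bears on the growth of pancreatic cancer cells.

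MYC is a transcription factor that pairs with MAX and binds E-boxes, short palindromic DNA words, in the promoters of genes for growth and protein synthesis. Making a ribosome starts in the nucleolus, where RNA polymerase I copies ribosomal DNA, small nucleolar ribonucleoproteins (snoRNPs) guide chemical changes of the rRNA, and separate sets of factors cut, fold and assemble the small (40S) and large (60S) subunits. Most of the 35 genes are often used as markers of MYC activity and growth, and MYC is commonly active in pancreatic carcinoma.

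The E-box words in these promoters are shown because MYC and MAX are known to bind them. The RefSeq promoter table (GRCh38.p14) holds windows from 250 bases before to 50 after an annotated start, and a gene can have several. In it, 28 of the 35 genes had a window, and NOLC1, TCOF1, NOP58, RRP12, BOP1, RRS1 and MYC are named only. The word CACGTG, which reads the same on both strands, stood in a window of 16 of the 28 genes (57.1%), against 8.77% of all 27305 genes with a window and 12.4% of the 10913 tested genes with one. The lines below give 30 bases around the word, 5′ to 3′ on the gene's strand with the word in capitals. They cover ODC1, the single called gene with a window, and the 5 other genes whose word begins before the annotated start of its window. In the first ODC1 line (chr2:10448024-10448053, minus strand) the first base of the word lies 29 bases before the annotated start of its window. The second ODC1 line (chr2:10447990-10448019, minus strand) shows a second word, which lies past the start, with 28 bases between the 2 words. The others are DDX21 (chr10:68956604-68956633, plus strand), LYAR (chr4:4290068-4290097, minus strand), NAT10 (chr11:34105602-34105631, plus strand), RRP9 (chr3:51941892-51941921, minus strand) and UTP20 (chr12:101280083-101280112, plus strand). ODC1, DDX21 and LYAR had 2 windows each, of which 1 held the word. The ODC1 and DDX21 words lie inside the GENCODE 29 spans of these genes (chr2:10439968-10448504 and chr10:68956128-68985073). The starts used for these 2 genes are therefore not their outermost annotated starts.
ODC1 first word: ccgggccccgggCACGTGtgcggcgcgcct
ODC1 second word: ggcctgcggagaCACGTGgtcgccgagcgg
DDX21: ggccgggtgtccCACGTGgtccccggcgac
LYAR: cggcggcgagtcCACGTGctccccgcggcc
NAT10: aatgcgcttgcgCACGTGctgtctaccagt
RRP9: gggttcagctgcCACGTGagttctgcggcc
UTP20: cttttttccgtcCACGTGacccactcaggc
The 6 bases are identical throughout while the flanks differ. Only 0.664% of all 35116 windows held 2 or more such words, as ODC1 did. A match is a description of the letters and not a measured MYC site, and a window without the word does not show that MYC is absent.

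Library totals lay between 36144330 and 45068660 counts. HMOX1 itself had 102 and 112 counts in HMOX1si1, 55 and 53 counts in HMOX1si2 and 328 and 378 counts in siControl. All 4 knockdown libraries lay below both controls, and HMOX1 fell by 1.75 on the log2 scale with HMOX1si1 (edgeR adjusted p = 0.00618, SE 0.16) and by 2.85 with HMOX1si2 (edgeR adjusted p = 0.00951, SE 0.17). Without siControl replicate 2 these calls were lost (edgeR adjusted p = 0.0637 and 0.0960), and without siControl replicate 1 the HMOX1si2 call was lost (edgeR adjusted p = 0.0778). All 8 epithelial markers of a carcinoma line passed the filter, at summed levels of 10393 to 10496 CPM (counts scaled by library size) in HMOX1si1, 14164 to 14272 in HMOX1si2 and 13984 to 15815 in siControl. KRT8, KRT18 and KRT19 of that list were called lower with HMOX1si1, by log2 fold changes of -0.68, -0.47 and -0.73. Of the markers of other cells, CD3E, HBB, CPA1, INS and SST were at 0 in every library, and the 4 endothelial markers summed to 0.550 to 1.71 CPM. The 6 fibroblast markers summed to 91.2 to 95.4 CPM in HMOX1si1, 79.0 to 87.0 in HMOX1si2 and 119 to 125 in siControl, nearly all of it LUM, which was called lower on average (-0.50 on the log2 scale, edgeR adjusted p = 0.0244) and with HMOX1si2 (-0.60, edgeR adjusted p = 0.0317). The 6 blood cell markers summed to 139 to 169 CPM in HMOX1si1, 105 to 138 in HMOX1si2 and 97.6 to 103 in siControl, mostly CD68, which was not called (0.71 with HMOX1si1, edgeR adjusted p = 0.0569). CD14 of the same list was called lower with HMOX1si1 (-0.68, edgeR adjusted p = 0.0325). The part of these marker differences in the results was not tested.

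Most of the ribosome biogenesis genes were measured close to their control level when HMOX1 was knocked down, and 3 genes rose. ODC1, the enzyme that starts polyamine synthesis, TCOF1, the nucleolar protein treacle that serves RNA polymerase I, and RRP12, which helps pre-ribosomes leave the nucleus, rose with HMOX1si1 by between 1.39-fold and 1.66-fold. TCOF1 also rose with HMOX1si2, by 1.49-fold. The level of MYC mRNA differed more between the replicates of HMOX1si2 than between group means. No member was called lower in any of the comparisons. These are bulk RNA values, in which fewer cells of one kind and less RNA per cell cannot be told apart. Whether replicates were separate cultures is not said in the labels, so the p-values cover the spread among these libraries alone, and that spread may be technical.

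In the edgeR quasi-likelihood fit over all 13769 tested genes, 3 of the 35 members were called with HMOX1si1 (8.57%) at an adjusted p under 0.05, against a background of 10% of all tested genes (5.02% higher and 5.01% lower). With HMOX1si2, 1 member was called (2.86%), against a background of 5.73% (3.06% higher and 2.67% lower). For the average of both siRNAs against siControl, 3 members were called, against a background of 10.1% (5.16% higher and 4.93% lower). For HMOX1si2 minus HMOX1si1, 0 members were called, against a background of 3.62% (2.14% higher and 1.49% lower). In that last comparison DESeq2 also called 0 members, and TSR1 and LTV1 were the 2 with an unadjusted edgeR p under 0.05. Counted in either direction, the share of members called was below that over all genes in each comparison. All called members were higher, and against the share of genes called higher, theirs was larger with HMOX1si1 (8.57% against 5.02%) and on average (8.57% against 5.16%) and not with HMOX1si2 (2.86% against 3.06%). Both siRNA comparisons use the same siControl libraries, so their calls are not independent of each other. The 3 calls of the average fell to 0 without siControl replicate 1, siControl replicate 2, HMOX1si1 replicate 1 or HMOX1si1 replicate 2. Without HMOX1si2 replicate 1 the average kept 2 calls, ODC1 and TCOF1, and without HMOX1si2 replicate 2 it had 4, with NOLC1 as the added gene. Over all genes, the calls of the average numbered 1389 with every library and 0 without either siControl library, where 3459 and 2562 genes had an unadjusted p under 0.05.

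The measured differences of the 35 genes were small. Their median log2 fold change was 0.01 with HMOX1si1, 0.05 with HMOX1si2 and 0.05 on average, against -0.00128, 0.00243 and -0.00448 over all tested genes. On average the members ranged from -0.22 (RRP9) to 0.63 (TCOF1). Of the 35, 28 differed by less than 1.2-fold, as did 7336 of all 13769 tested genes. For 28 of 35 members the 95% interval of the average fold change lay within 1.5-fold in either direction, which bounds the difference for those genes. Over all tested genes, 48.5% had such an interval. All 4 knockdown libraries lay above both controls in 9 members (25.7%), against a background of 18.7% of tested genes. These 9 were ODC1, NOLC1, TCOF1, POLR1B, DKC1, HEATR1, UTP20, RRP12 and PES1. All 4 lay below both controls in 2 members, NOP2 and WDR12 (5.71%), against a background of 18.2%.

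**Figure D1:**
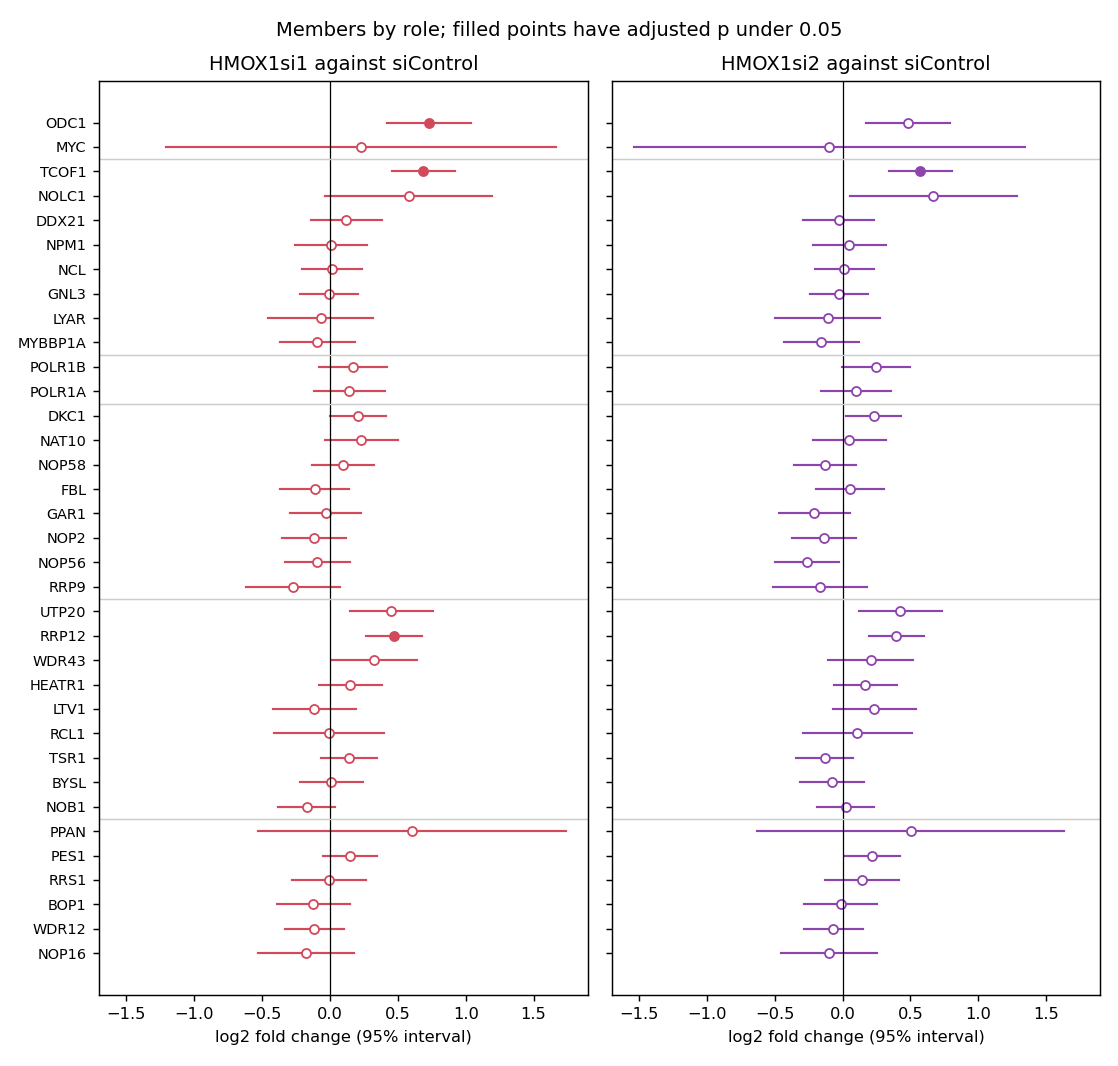
Log2 fold change (x axis) of each of the 35 genes (rows, ordered by role, grey lines between roles) with HMOX1si1 (left) and HMOX1si2 (right) against the same 2 siControl libraries; bars are 95% intervals from edgeR and filled points have an adjusted p under 0.05. The 3 filled points on the left are ODC1, TCOF1 and RRP12, the 1 on the right is TCOF1, and MYC and PPAN have the widest intervals.

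MYC (chr8:127735434-127741434, plus strand, GENCODE 29 on GRCh38) was measured at low and uneven levels. It had 6.42 and 8.63 CPM in HMOX1si1, 9.66 and 2.37 CPM in HMOX1si2 and 5.55 and 7.28 CPM in siControl. Both the highest and the lowest of the 6 values were in HMOX1si2, so the groups overlapped. The group means were 7.52 ± 1.57 CPM in HMOX1si1, 6.01 ± 5.16 in HMOX1si2 and 6.42 ± 1.22 in siControl (SD, n = 2 each). Against siControl the log2 difference was 0.23 with HMOX1si1 (edgeR adjusted p = 0.818, SE 0.59) and -0.10 with HMOX1si2 (edgeR adjusted p = 0.935, SE 0.59). On average it was 0.06, with a 95% interval of -1.18 to 1.31, so neither a rise nor a fall inside that interval is excluded by these libraries. The HMOX1si2 value turned on its libraries, at 0.58 without HMOX1si2 replicate 2 (edgeR adjusted p = 0.215) and -1.44 without HMOX1si2 replicate 1 (edgeR adjusted p = 0.107).

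ODC1 (chr2:10439968-10448504, minus strand), the rate-limiting enzyme of polyamine synthesis, had 184 and 181 CPM in HMOX1si1, 136 and 171 CPM in HMOX1si2 and 113.5 and 107 CPM in siControl. The 4 knockdown libraries were all above the controls, and HMOX1si2 replicate 1 was the lowest of them. ODC1 rose 1.66-fold with HMOX1si1 (log2 fold change 0.73, SE 0.13, 95% interval 0.42 to 1.04, edgeR adjusted p = 0.0255). With HMOX1si2 the log2 fold change was 0.48 (edgeR adjusted p = 0.0855, SE 0.13), which did not pass, and the difference between the siRNAs was -0.25 (edgeR adjusted p = 0.333). On average ODC1 rose 1.52-fold (0.60, SE 0.11, edgeR adjusted p = 0.0303), a call that was lost without either siControl library (0.116 and 0.189 without replicates 1 and 2) and without either HMOX1si1 library (0.0760 and 0.0850), in edgeR adjusted p.

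**Figure D2:**
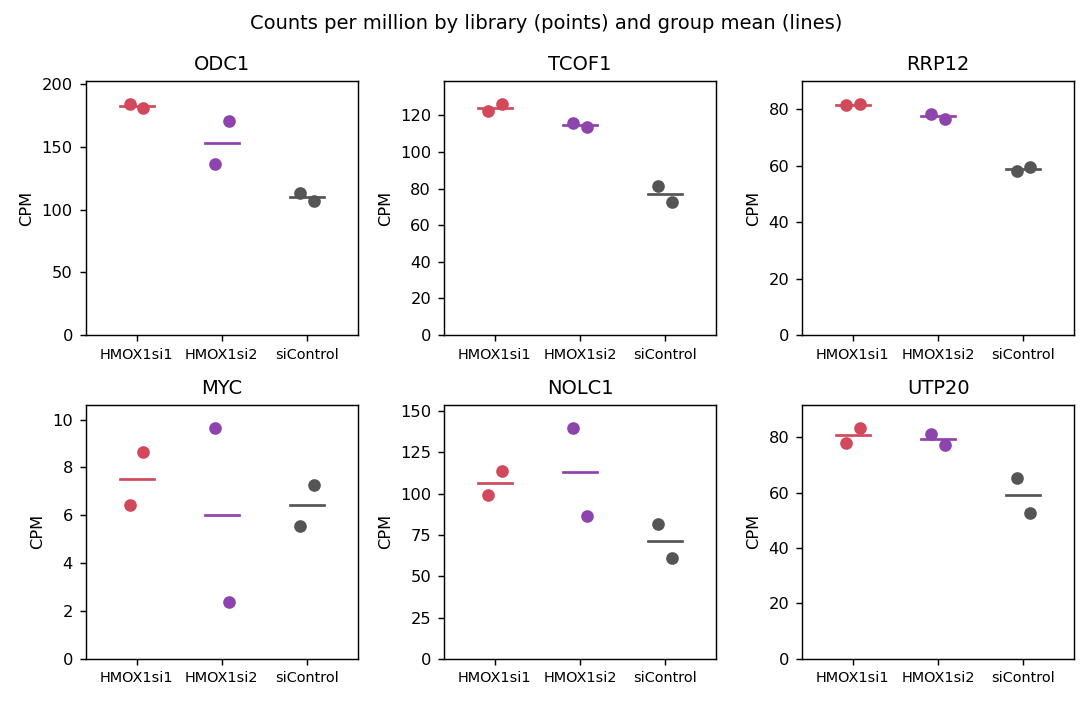
CPM (y axis, from 0) of the 3 called genes in the upper row and of MYC, NOLC1 and UTP20 in the lower row, by group; points are single libraries and lines are the mean of 2. ODC1, TCOF1 and RRP12 have all 4 knockdown libraries above both siControl libraries, while the HMOX1si2 libraries of MYC lie on either side of the controls.

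Among the 8 abundant nucleolar proteins and scaffolds, 1 rose on average (12.5%, against a background of 10.1%) and the median log2 fold change was 0.02. TCOF1 (chr5:150357629-150400308, plus strand), treacle, the protein altered in Treacher Collins syndrome, had 122 and 126 CPM in HMOX1si1, 116 and 113.5 CPM in HMOX1si2 and 81.6 and 72.7 CPM in siControl. Replicates of each knockdown group lay close together and far above the controls. TCOF1 rose 1.61-fold with HMOX1si1 (log2 fold change 0.69, SE 0.10, edgeR adjusted p = 0.0151), 1.49-fold with HMOX1si2 (0.57, SE 0.10, edgeR adjusted p = 0.0337) and 1.55-fold on average (0.63, SE 0.09, edgeR adjusted p = 0.0167). The siRNAs differed by -0.11 on the log2 scale (edgeR adjusted p = 0.564). The average was not called without siControl replicate 1 (edgeR adjusted p = 0.0684), siControl replicate 2 (0.115), HMOX1si1 replicate 1 (0.0524) or HMOX1si1 replicate 2 (0.0650), and without any 1 of the 6 libraries the HMOX1si2 call was lost (edgeR adjusted p between 0.0668 and 0.150).

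NOLC1, the chaperone of snoRNPs that moves between nucleolus and cytoplasm and is related in sequence to treacle, had 99.1 and 114 CPM in HMOX1si1, 139.9 and 86.7 CPM in HMOX1si2 and 81.7 and 61.0 CPM in siControl. All knockdown libraries lay above the controls, but HMOX1si2 replicate 2 was only just above siControl replicate 1. The average log2 fold change of 0.62 (edgeR adjusted p = 0.124, SE 0.22) did not pass, and it was 0.77 (edgeR adjusted p = 0.0382) without HMOX1si2 replicate 2. DESeq2 gave NOLC1 an adjusted p of 0.0321 on average.

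NCL, nucleolin, and NPM1, the histone chaperone nucleophosmin that organises the outer nucleolus, carried the most RNA of the group. NCL had 727 and 749 CPM in HMOX1si1, 768 and 707 CPM in HMOX1si2 and 749 and 712 CPM in siControl. NPM1 had 840 and 745 CPM in HMOX1si1, 759 and 873 CPM in HMOX1si2 and 791 and 786 CPM in siControl. For both genes the groups overlapped, and the average log2 fold changes of 0.01 (95% interval -0.18 to 0.20, edgeR adjusted p = 0.923) and 0.03 (-0.20 to 0.26, edgeR adjusted p = 0.863) were bounded tightly. GNL3, the GTPase nucleostemin, had 69.2 to 73.5 CPM across all 6 libraries and an average log2 fold change of -0.02 (edgeR adjusted p = 0.903). DDX21, an RNA helicase, MYBBP1A, a nucleolar binding partner of MYB, and LYAR, a nucleolar zinc finger protein, had average log2 fold changes of 0.05, -0.13 and -0.09, and none passed. MYBBP1A shares 139 exonic bases with SPNS2 on the opposite strand. SPNS2 had 229 and 220 CPM in HMOX1si1, 296 and 324 CPM in HMOX1si2 and 94.0 and 106 CPM in siControl. The part of shared reads in the MYBBP1A values was not tested.

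RNA polymerase I was represented by its large catalytic subunits. POLR1A, the largest, had 147 and 158 CPM in HMOX1si1, 154 and 142 CPM in HMOX1si2 and 147 and 129 CPM in siControl, with overlapping groups and an average log2 fold change of 0.12 (95% interval -0.11 to 0.35, edgeR adjusted p = 0.415). POLR1B, the next in size, had 57.2 and 51.7 CPM in HMOX1si1, 54.6 and 60.3 CPM in HMOX1si2 and 48.9 and 47.9 CPM in siControl. Its knockdown libraries all lay above the controls by a small margin, and the average of 0.21 (-0.01 to 0.43, edgeR adjusted p = 0.173) did not pass.

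Of the 8 snoRNP proteins and rRNA modifying enzymes, 0 were called on average (0 by edgeR and 0 by DESeq2), against an edgeR background of 10.1%. DKC1 alone had an unadjusted p under 0.05, and the median log2 fold change was -0.07. DKC1, dyskerin, the pseudouridine synthase of the box H/ACA particles, had 130.5 and 135 CPM in HMOX1si1, 136 and 134 CPM in HMOX1si2 and 117 and 114 CPM in siControl. The knockdown libraries lay close together above the controls, and the average log2 fold change of 0.22 (95% interval 0.04 to 0.40, unadjusted p = 0.0249, edgeR adjusted p = 0.110) did not pass. The core proteins of the box C/D particles, which guide methylation of the ribose in rRNA, gave values on both sides of their controls. NOP58 had 123 and 117 CPM in HMOX1si1, 98.4 and 107 CPM in HMOX1si2 and 116 and 109 CPM in siControl. Its HMOX1si1 libraries were the highest and its HMOX1si2 libraries the lowest, but the average was -0.02 (edgeR adjusted p = 0.911) and the difference between the siRNAs, -0.23, did not pass (edgeR adjusted p = 0.250). NOP56 had 119 and 112 CPM in HMOX1si1, 98.7 and 107 CPM in HMOX1si2 and 119 and 128 CPM in siControl. With HMOX1si2 the log2 fold change of NOP56 was -0.26 (unadjusted p = 0.0360, edgeR adjusted p = 0.164). It was the single member below its controls with an unadjusted p under 0.05 in any comparison with siControl.

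FBL, fibrillarin, the methyltransferase of the same particles, had 138 and 126 CPM in HMOX1si1, 142 and 155 CPM in HMOX1si2 and 136 and 149.8 CPM in siControl, with overlapping groups. RRP9, the U3-specific protein, had the lowest average value of all 35 genes, -0.22 (95% interval -0.52 to 0.08, edgeR adjusted p = 0.270). GAR1, another box H/ACA protein, NOP2, a 60S rRNA methyltransferase, and NAT10, the rRNA acetyltransferase, had averages of -0.12, -0.13 and 0.14, and none passed.

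Among the 9 factors of small subunit assembly, 1 rose on average (11.1%, against a background of 10.1%) and the median log2 fold change was 0.06. RRP12 (chr10:97356358-97426076, minus strand), a HEAT-repeat protein needed in yeast for the export of both subunits, had 81.3 and 81.7 CPM in HMOX1si1, 78.3 and 76.5 CPM in HMOX1si2 and 58.1 and 59.6 CPM in siControl. Replicates lay within a few CPM of each other and the groups did not overlap. RRP12 rose 1.39-fold with HMOX1si1 (edgeR adjusted p = 0.0266, log2 fold change 0.47, SE 0.08) and 1.35-fold on average (0.43, SE 0.07, edgeR adjusted p = 0.0250), and with HMOX1si2 the value of 0.40 (SE 0.08, edgeR adjusted p = 0.0519) was just outside the threshold. The average call was lost without siControl replicate 1 or 2 (edgeR adjusted p = 0.106 and 0.138), HMOX1si1 replicate 1 or 2 (0.0810 and 0.0949) or HMOX1si2 replicate 1 (0.0546).

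UTP20, the very large HEAT-repeat scaffold of the small subunit processome, had 78.0 and 83.4 CPM in HMOX1si1, 81.2 and 77.3 CPM in HMOX1si2 and 65.3 and 52.7 CPM in siControl. Its controls differed more from each other than its knockdown libraries did, and all 4 of these were higher. The average log2 fold change of 0.44 (edgeR adjusted p = 0.0594, SE 0.11) did not pass, while DESeq2 gave an adjusted p of 0.00800. HEATR1, the human UTP10 of the same processome, had 112 and 115 CPM in HMOX1si1, 115 and 115 CPM in HMOX1si2 and 108 and 96.5 CPM in siControl. The average of 0.16 (95% interval -0.04 to 0.36, edgeR adjusted p = 0.243) did not pass. HEATR1 shares 2095 exonic bases with LGALS8 on the opposite strand, and LGALS8 had 68.9 and 82.2 CPM in HMOX1si1, 79.7 and 60.7 CPM in HMOX1si2 and 16.6 and 37.3 CPM in siControl. Whether strand was used in counting is not stated, so reads of the shared part cannot be assigned to HEATR1 or LGALS8 with certainty.

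WDR43, the human UTP5, had 88.7 and 98.6 CPM in HMOX1si1, 94.3 and 78.1 CPM in HMOX1si2 and 78.5 and 71.0 CPM in siControl. Only HMOX1si2 replicate 2 fell within the control range, and the average of 0.27 did not pass (edgeR adjusted p = 0.168). BYSL, bystin, a late 40S assembly factor, was among the steadiest genes, with 24.0 to 26.1 CPM over all 6 libraries and an average of -0.03 (edgeR adjusted p = 0.805). NOB1, the endonuclease that makes the final cut of 18S rRNA, and RCL1, a processome protein, had averages of -0.07 and 0.05.

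The cytoplasmic 40S maturation factors TSR1, a GTPase-like protein, and LTV1, needed in yeast for 40S export, had the smallest unadjusted p between the siRNAs. TSR1 had 82.1 and 81.0 CPM in HMOX1si1, 66.7 and 68.3 CPM in HMOX1si2 and 75.6 and 72.4 CPM in siControl. LTV1 had 16.3 and 18.0 CPM in HMOX1si1, 23.5 and 20.3 CPM in HMOX1si2 and 18.9 and 18.3 CPM in siControl. In TSR1 the HMOX1si1 libraries were above and the HMOX1si2 libraries below the controls, and in LTV1 the order was the other way round. The differences of HMOX1si2 minus HMOX1si1, -0.27 (unadjusted p = 0.0179, edgeR adjusted p = 0.145) for TSR1 and 0.35 (unadjusted p = 0.0308, edgeR adjusted p = 0.188) for LTV1, did not pass. Both overlap other genes in their exons, TSR1 with SRR over 1146 bases.

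Of the 6 factors of large subunit assembly, 0 were called on average by edgeR and 0 by DESeq2, against an edgeR background of 10.1%. PES1 alone had an unadjusted p under 0.05. PES1, BOP1 and WDR12 form the PeBoW complex, which processes the rRNA of the large subunit. PES1, pescadillo, had 138 and 138 CPM in HMOX1si1, 146 and 143.5 CPM in HMOX1si2 and 123 and 126 CPM in siControl. Its knockdown libraries all lay above the controls, and the average log2 fold change of 0.18 (SE 0.07, unadjusted p = 0.0433, edgeR adjusted p = 0.147) did not pass. WDR12 had 55.7 and 56.8 CPM in HMOX1si1, 60.1 and 56.0 CPM in HMOX1si2 and 61.7 and 60.2 CPM in siControl. Its 4 knockdown libraries all lay below the controls, by as little as a fraction of a CPM, and the average was -0.09 (edgeR adjusted p = 0.449). BOP1 gave -0.07 (edgeR adjusted p = 0.656), so the 3 average values of this complex had mixed signs, and no difference among them was tested. RRS1, which brings the 5S particle to the large subunit, had 31.6 and 31.7 CPM in HMOX1si1, 37.0 and 33.0 CPM in HMOX1si2 and 29.8 and 33.7 CPM in siControl, with overlapping groups and an average of 0.07 (edgeR adjusted p = 0.670). NOP16 gave -0.14 (edgeR adjusted p = 0.488).

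PPAN, the human Peter Pan protein of 60S assembly, could not be read from its own row. It had 29.6 and 10.2 CPM in HMOX1si1, 19.8 and 17.4 CPM in HMOX1si2 and 11.1 and 15.1 CPM in siControl, and an average log2 fold change of 0.55 (95% interval -0.45 to 1.55, edgeR adjusted p = 0.399). The HMOX1si1 libraries were the highest and the lowest of all. PPAN shares 1447 exonic bases on the same strand with the readthrough gene PPAN-P2RY11, which had 11.6 and 28.96 CPM in HMOX1si1, 24.2 and 15.7 CPM in HMOX1si2 and 23.6 and 22.0 CPM in siControl. The readthrough gene was thus low in the library where PPAN was high. With P2RY11 added, the 3 models summed to 42.6 and 39.9 CPM in HMOX1si1, 48.1 and 35.4 CPM in HMOX1si2 and 35.8 and 38.2 CPM in siControl, a sum that overlapped between HMOX1si2 and siControl.

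**Figure D3:**
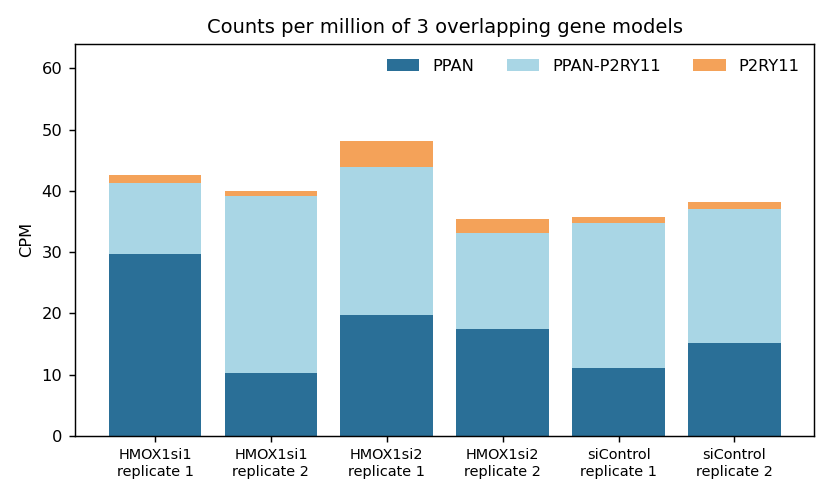
CPM (y axis, stacked from 0) of PPAN, the readthrough gene PPAN-P2RY11 and P2RY11 in each of the 6 libraries. PPAN is 29.6 CPM in HMOX1si1 replicate 1 and 10.2 CPM in HMOX1si1 replicate 2, while the sums of the 3 models in these libraries are 42.6 and 39.9 CPM.

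Per kilobase of exon, the 35 genes covered a wide range of levels. The mean RPKM (CPM per kilobase of exon) over all 6 libraries was highest for NPM1 (208.7) and NCL (106), followed by FBL (65.0), NOB1 (58.8) and ODC1 (50.2). The called genes TCOF1 (9.21) and RRP12 (8.51) lay far down this order, beside UTP20 (7.28), and the lowest were RCL1 (2.25) and MYC (2.22). The length used is that of all annotated exons merged, 11439 bases for TCOF1 and 8529 for RRP12. The order between genes depends on these lengths, which may exceed those of the transcripts present. MYC was at the 33.1 percentile of RPKM among 13753 tested genes with a length, and NPM1 at the 99.1 percentile. The order of RCL1 and MYC is not resolved, since the SD of MYC in HMOX1si2 exceeded their difference. The 35 genes summed to 4299 and 4243 CPM in HMOX1si1, 4228 and 4227 CPM in HMOX1si2 and 4054 and 3945 CPM in siControl, of which NCL and NPM1 made up between 35.2% and 38.0%. The 4 knockdown sums were above both control sums, an order that 18.7% of single tested genes also had. The sums include the called genes. ODC1 had group means of 183 CPM in HMOX1si1, 154 in HMOX1si2 and 110 in siControl, and TCOF1 had 124, 115 and 77.1. Of the 35 genes, 21 had a positive and 14 a negative average log2 fold change, so the sums do not show a rise of every gene. Without NCL and NPM1 the sums were 2733 and 2749 CPM in HMOX1si1, 2701 and 2648 CPM in HMOX1si2 and 2514 and 2447 CPM in siControl.

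**Figure D4:**
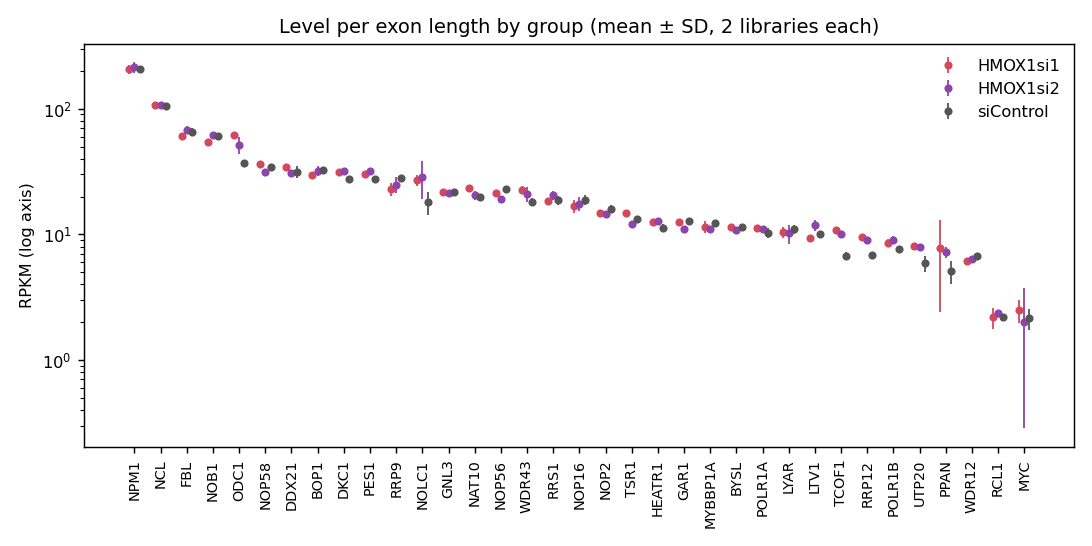
Mean RPKM of each of the 35 genes (y axis, log scale) by group, ordered by the mean of all 6 libraries; error bars are the SD of 2 libraries. NPM1 is highest at 208.7 and MYC lowest at 2.22, and the widest bars are those of MYC in HMOX1si2 and PPAN in HMOX1si1.

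Replicates of these genes were close to each other apart from MYC, NOLC1 and PPAN. The median ratio of the higher to the lower replicate was 1.07 in HMOX1si1, 1.09 in HMOX1si2 and 1.08 in siControl, against 1.11, 1.15 and 1.12 over all tested genes. A replicate gap of over 2-fold was seen for PPAN in HMOX1si1 and MYC in HMOX1si2. Genes with the E-box word in their window had a median average log2 fold change of 0.01, and 8 of these 16 were above 0. Those with a window and no such word had a median of 0.02, and 8 of these 12 were above 0. The 7 genes without a window, TCOF1 and RRP12 among them, are in neither set. The difference between the sets was not tested.

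The wider pathway was described by 8 further lists of 194 genes, in which 11 were called on average (5.67%, 8 higher and 3 lower), below the background of 10.1%. With HMOX1si1, 9 were called (4.64%, 5 higher and 4 lower), against a background of 10%. With HMOX1si2, 6 were called (3.09%, 4 higher and 2 lower), against a background of 5.73%. By list, the average calls made up 11.8% of MYC partners and regulators, 6.25% of polyamine genes and 3.57% of other MYC targets. They made up 15.4% of RNA polymerase I genes, 4.17% of 40S, 2.13% of 60S, 11.1% of snoRNP and 6.25% of exosome and nuclease genes. The background for each is 10.1%, and each share rests on 1 or 2 called genes. Of the 17 MYC partners and regulators, MLXIP rose and MLXIPL fell, both glucose-responsive factors of the extended MYC network, and the list's median was 0.33. MLXIP had 294 and 312 CPM in HMOX1si1, 324 and 284 CPM in HMOX1si2 and 201 and 191 CPM in siControl, an average log2 fold change of 0.63 (edgeR adjusted p = 0.0199, SE 0.09). MLXIPL had 4.32 and 4.63 CPM in HMOX1si1, 8.32 and 5.97 CPM in HMOX1si2 and 9.62 and 10.6 CPM in siControl, an average of -0.84 (SE 0.16, edgeR adjusted p = 0.0321). For both genes the knockdown libraries stood clear of the controls, though HMOX1si2 replicate 1 came near them for MLXIPL. MLXIPL was called with HMOX1si1 (-1.18, edgeR adjusted p = 0.0220) and did not pass with HMOX1si2 alone (-0.50, edgeR adjusted p = 0.167).

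Of 16 genes of polyamine metabolism, the pathway that ODC1 opens, SMOX rose and the median was -0.12. SMOX, spermine oxidase, had 53.5 and 53.1 CPM in HMOX1si1, 35.6 and 37.4 CPM in HMOX1si2 and 31.3 and 25.7 CPM in siControl, an average of 0.63 (SE 0.11, edgeR adjusted p = 0.0248). Its HMOX1si1 libraries were by far the highest, and with HMOX1si2 alone the gene did not pass (0.36, edgeR adjusted p = 0.135). Of 28 other MYC targets, CBX3, the heterochromatin protein HP1 gamma, fell on average (-0.83, SE 0.11, edgeR adjusted p = 0.0152), and the median was -0.11. The fall was carried by HMOX1si2, as its difference between the siRNAs passed (-1.15, SE 0.13, edgeR adjusted p = 0.0148).

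Of 13 further RNA polymerase I subunits and factors, UBTF and TAF1D rose on average (15.4%, against a background of 10.1%), and the median was -0.02. UBTF, the architectural factor of active ribosomal DNA, had 171 and 183 CPM in HMOX1si1, 169 and 155 CPM in HMOX1si2 and 114 and 109.5 CPM in siControl, an average of 0.60 (SE 0.08, edgeR adjusted p = 0.0185). All 4 knockdown libraries were well above the controls. TAF1D, a subunit of the promoter selectivity factor SL1, rose by 0.38 on average (SE 0.08, edgeR adjusted p = 0.0357). It did not pass with HMOX1si2 alone (edgeR adjusted p = 0.101). POLR1C, a subunit shared with RNA polymerase III, fell with HMOX1si1 (-0.83, SE 0.16, edgeR adjusted p = 0.0331). TAF1D and POLR1C share exonic bases with neighbouring genes.

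Of 48 other 40S assembly genes, 2 rose and 0 fell on average, and the median was 0.03. The 2 were the helicase DHX37 (0.51, SE 0.08, edgeR adjusted p = 0.0232) and the GTPase BMS1 (0.38, SE 0.08, edgeR adjusted p = 0.0450). BMS1 passed with neither siRNA alone (edgeR adjusted p = 0.0555 with HMOX1si1 and 0.0820 with HMOX1si2). DHX37 did not pass with HMOX1si1 alone (edgeR adjusted p = 0.0635). The rRNA methyltransferase DIMT1 fell with HMOX1si1 (-0.51, SE 0.09, edgeR adjusted p = 0.0289). Of 47 other 60S assembly genes, the helicase DDX24 rose on average (0.60, SE 0.08, edgeR adjusted p = 0.0172), with 74.5 and 67.2 CPM in HMOX1si1, 69.8 and 69.1 CPM in HMOX1si2 and 46.2 in each siControl library, while the helicase DDX18 fell with HMOX1si2 (-0.53, SE 0.09, edgeR adjusted p = 0.0371). DDX24 shares exonic bases with OTUB2 on the opposite strand. Of 9 other snoRNP proteins NHP2, of the box H/ACA core, fell on average (-0.41, SE 0.08, edgeR adjusted p = 0.0397). It did not pass with HMOX1si2 alone (edgeR adjusted p = 0.136). Of 16 exosome and rRNA processing nucleases ISG20L2 rose on average (0.55, SE 0.12, edgeR adjusted p = 0.0468) while the median was -0.23. ISG20L2 passed with neither siRNA alone (edgeR adjusted p = 0.0521 with HMOX1si1 and 0.0948 with HMOX1si2). The 11 average calls of these lists came to 0 without siControl replicate 1 or siControl replicate 2, to 1 without HMOX1si1 replicate 1 or HMOX1si1 replicate 2, to 7 without HMOX1si2 replicate 1 and to 10 without HMOX1si2 replicate 2.

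**Figure D5:**
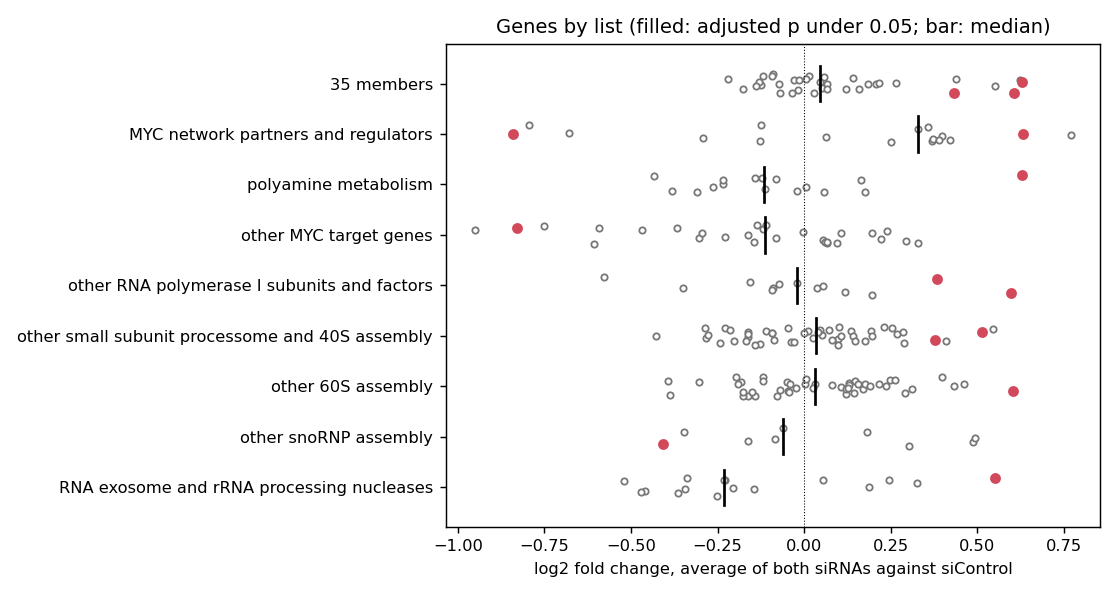
Average log2 fold change of both siRNAs against siControl (x axis) of the 35 genes and of the genes in 8 further lists (rows); each point is a gene, filled points have an edgeR adjusted p under 0.05 and bars are list medians. The medians lie between -0.23 and 0.33, and 3 of the 35 genes and 11 of the 194 further genes are filled.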

How the data were processed

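The deposited table holds 1 value per gene and library for 6 libraries of AsPC-1 RNA. The values were treated as estimated counts (expected_counts), since the labels do not say how the authors counted. All values were whole, so rounding changed nothing, and plain read counts cannot be told apart from rounded estimates. Of values from 1 to 10, 71.9% were even, against 49.9% of those over 100, so mates may have been counted apart. The submitters' processing notes list the mouse builds GRCm38 and mm10, while every gene identifier is human, and which build served for the counting remains unknown. Coordinates, exon lengths and overlaps come from GENCODE 29 (GRCh38), which held 20224 of the 20263 genes.

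Genes were filtered with filterByExpr (13769 kept), normalised with TMM and modelled in edgeR 4.0.16 (glmQLFit, glmQLFTest; R 4.3.3, limma 3.58.1) with all 6 libraries and a mean for each group, with Benjamini-Hochberg adjustment over all genes tested and a threshold of 0.05. Standard errors are the size of the log2 fold change over the root of F, and intervals use the t quantile of the fit. CPM uses TMM-scaled library sizes and RPKM divides it by kilobases of merged exons. The common biological coefficient of variation was 0.165. The fit was tested on simulated data. Alternatives were DESeq2 1.42.0, other scalings, no filter, a replicate block, a test against a 1.2-fold change, fits of the compared groups alone, leaving out each library, and, chosen after seeing the data, halved counts.

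Replicates of a group differed beyond sampling noise (chi-square per degree of freedom 44.0 in HMOX1si1, 76.6 in HMOX1si2 and 34.7 in siControl). The members and lists were chosen with earlier results of these data known. Values per library are given for MYC, ODC1, called members and the members with the smallest and the largest p on average in each role, and other members were chosen after their values were seen. Of each further list, up to 4 genes with the smallest p on average and up to 2 with the smallest p between the siRNAs may be named, with called genes. Of 260 list genes 259 matched 1 row.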

Additional observations from a re-analysis of the deposited data

Results flagged for a closer look

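Among the further MYC-related genes, MYCN and CBX3 differed between the siRNAs by a test of the difference itself. MYCN, a paralog of MYC, had 2 and 2 counts in HMOX1si1, 22 and 50 counts in HMOX1si2 and 8 and 21 counts in siControl, at most 1.11 CPM. The fitted log2 difference of HMOX1si2 minus HMOX1si1 was 3.97 (edgeR adjusted p = 0.0476) and depends on the prior count. The ratio of summed counts per library total was 16.7, with an exact 95% interval of 6.26 to 63.1 that covers counting error only. If mates were counted apart, which the excess of even low values leaves possible, these counts stand for fewer fragments and the interval is too narrow. CBX3 had 215 and 178 CPM in HMOX1si1, 81.7 and 94.7 CPM in HMOX1si2 and 231 and 237 CPM in siControl, a log2 difference of HMOX1si2 minus HMOX1si1 of -1.15 (edgeR adjusted p = 0.0148). CBX3 shares 368 exonic bases with HNRNPA2B1 on the opposite strand. With any 1 of the 6 libraries left out, the MYCN difference was no longer called (edgeR adjusted p between 0.0692 and 0.213), and the CBX3 difference was called only without HMOX1si2 replicate 2 (edgeR adjusted p = 0.0401, against up to 0.0775 in the others). None of the 35 members was flagged this way.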

How the results depend on the processing

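All called members were higher in every setting tried. With HMOX1si1, 3 members were called, 4 with DESeq2, 1 with the replicate block, 1 in the test against a 1.2-fold change, and between 0 and 3 with 1 library left out. With HMOX1si2, 1 was called, 4 with DESeq2, 0 with the replicate block, 0 against a 1.2-fold change, 0 with only the compared groups, 2 with halved counts, and 0 to 0 with 1 library left out. For the average, 3 were called, 5 with DESeq2, 0 with the replicate block, 0 against a 1.2-fold change, and between 0 and 4 with 1 library left out. The difference between the siRNAs gave 0 members in every setting. Over all genes, the average gave 1389 calls, 2613 with DESeq2, 255 with the replicate block, 284 against a 1.2-fold change, 290 and 180 without HMOX1si1 replicate 1 or 2, 705 without HMOX1si2 replicate 1, and 0 without either siControl library. Of the 11 average calls in the further lists, 1 held with the replicate block and 1 against a 1.2-fold change. Other scalings and no filter kept each of the members' counts. A lone library left in a group was assumed to vary like the other groups. The labels pair no samples, and deviations of same-numbered libraries correlated at 0.008 (siControl with HMOX1si1), 0.027 (siControl with HMOX1si2) and -0.153 (HMOX1si1 with HMOX1si2), so the block reflects only shared numbers. With 2 libraries per group, differences in MYC and PPAN inside their wide intervals are not excluded. The causes of these shifts were not tested.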
